A study of Mus musculus with 9 samples.

Results

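The genes described here are 10 mouse genes of mitosis, chosen by name: the mitotic kinases *Cdk1*, *Aurka*, *Aurkb* and *Plk1*, the spindle checkpoint genes *Ttk*, *Bub1*, *Bub1b*, *Bub3* and *Mad2l1*, and the transcription factor gene *Foxm1*. They were taken from 22367 protein-coding genes, and 37273 genes in all, in the GENCODE M1 annotation of the mm9 mouse genome. For each of them, every BAP1 peak was listed whose middle lay within 1 kb of a transcription start site (TSS) of the gene, which is called a gene-proximal peak here. BAP1 is a deubiquitinase that removes ubiquitin from histone H2A.

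The study mapped BAP1 by chromatin immunoprecipitation and sequencing (ChIP-Seq) in Ba/F3, a mouse B cell precursor line grown with IL-3. The first of the 2 samples behind the peaks was wild type Ba/F3 with an anti-BAP1 antibody, and the second was Ba/F3 stably expressing murine BAP1 with a triple FLAG tag, kept under puromycin selection, with an anti-FLAG antibody. Both entered 1 list of 13164 peaks, and the other samples of the 9 in the series, which are input DNA and H2AK119ub in wild type, tagged or *Bap1* knockout Ba/F3, were not analysed here. Each immunoprecipitation is 1 sample with no replicate, the promoter that drives the tagged BAP1 is not given in the sources used here, and the list holds no expression values, so the cell type could not be checked against its markers.

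All intervals of the list were 200 bp wide and carried no score, height or read count. A gene therefore either had a peak or did not, and neither the strength of binding nor a difference between both antibodies could be read from it. The depth behind the list is unknown. The peaks stood in order of their distance to a TSS, with a median distance of 19.0 bp in the quartile that opens the list and 10084 bp in the one that ends it, so a peak's place in the list gave no strength either.

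Mitosis is driven by protein kinases that switch on in turn. CDK1 with cyclin B starts it, the Aurora and Polo-like kinases build the spindle and control its contact with the chromosomes, and the spindle checkpoint holds the separation of sister chromatids until every kinetochore is attached. The genes for these proteins are transcribed late in the cell cycle, under the MuvB complex with B-MYB and FOXM1, through a promoter element called CHR (cell cycle genes homology region) that often lies near CCAAT boxes bound by NF-Y.

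Of the 10 mitotic genes, 8 had a gene-proximal BAP1 peak (80.0%) and *Ttk* and *Bub1b* had none. Of all protein-coding genes, 39.6% had one, and of all annotated genes 26.2%. The genes were chosen with earlier results of these data known, so no test was made of this difference. Neither background share was matched for CpG content, described below, whose median in the 10 promoters was close to that of bound genes. Each of the 8 genes had exactly 1 peak. Among the 8850 protein-coding genes with a peak, 74.5% had 1, 23.5% had 2 and 2.00% had 3 or more.

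The sequences that carried these positions are shown for the members whose peak reached outside annotated exons, and for *Ttk* and *Bub1b*, which had no peak, as the 200 bases before their first TSS. Each is given 5′ to 3′ on the strand of the gene, from mm9, and only as far as it lay outside every annotated exon and upstream of the RefSeq TSS. Capitals mark exact matches, on either strand, to CHR (TTTGAA), its variant (TTCGAA), the NF-Y box (CCAAT), the Sp box (GGGCGG) and ACTACAA, the start of the motif of THAP11 and ZNF143. The peaks of *Aurka* and *Foxm1* lay in exons of neighboring genes and are given by position only.
Cdk1, peak, chr10:68815687-68815871, minus strand: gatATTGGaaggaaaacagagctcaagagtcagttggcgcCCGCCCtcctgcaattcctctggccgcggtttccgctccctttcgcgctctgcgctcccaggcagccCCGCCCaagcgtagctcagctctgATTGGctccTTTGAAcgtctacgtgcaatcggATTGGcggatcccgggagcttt
Aurkb, peak, chr11:68859034-68859148, plus strand: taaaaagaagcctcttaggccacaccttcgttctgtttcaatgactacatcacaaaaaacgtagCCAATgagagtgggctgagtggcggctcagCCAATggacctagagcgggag
Plk1, peak, chr7:129302916-129302948, plus strand: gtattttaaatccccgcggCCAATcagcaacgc
Ttk, no peak, chr9:83728096-83728295, plus strand: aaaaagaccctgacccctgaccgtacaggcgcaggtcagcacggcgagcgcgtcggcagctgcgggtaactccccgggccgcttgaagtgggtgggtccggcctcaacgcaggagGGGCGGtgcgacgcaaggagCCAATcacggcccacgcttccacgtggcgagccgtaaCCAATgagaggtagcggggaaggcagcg
Bub1, peak, chr2:127657602-127657790, minus strand: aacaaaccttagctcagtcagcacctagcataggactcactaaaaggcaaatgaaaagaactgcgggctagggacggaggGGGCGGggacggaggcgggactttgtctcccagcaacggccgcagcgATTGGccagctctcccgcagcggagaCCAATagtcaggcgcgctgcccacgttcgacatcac
Bub1b, no peak, chr2:118423747-118423946, plus strand: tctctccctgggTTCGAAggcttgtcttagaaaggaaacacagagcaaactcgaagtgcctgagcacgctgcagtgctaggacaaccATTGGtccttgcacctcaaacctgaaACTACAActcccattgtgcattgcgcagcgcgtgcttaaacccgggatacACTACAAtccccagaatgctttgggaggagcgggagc
Bub3, peak, chr7:138703800-138703883, plus strand: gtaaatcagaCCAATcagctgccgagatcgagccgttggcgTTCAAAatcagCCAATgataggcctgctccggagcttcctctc
Mad2l1, peak, chr6:66485092-66485214, plus strand: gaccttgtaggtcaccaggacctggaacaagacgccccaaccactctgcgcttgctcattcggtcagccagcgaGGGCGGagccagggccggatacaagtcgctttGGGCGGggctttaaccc

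The 4 genes grouped here as mitotic kinases all had a peak. *Cdk1*, the kinase that starts mitosis (ENSMUSG00000019942.6, chr10:68799383-68815686, minus strand), had its peak at chr10:68815672-68815871. The middle of that peak lay at -85 bp from the TSS, where negative distances are upstream, and the interval ran from -185 to 14 bp, over the TSS. *Aurka*, the Aurora kinase of the centrosome and spindle poles (ENSMUSG00000027496.9, chr2:172181690-172196035, minus strand), had its peak at chr2:172196302-172196501, at -366 bp. This interval ended at -267 bp and did not reach the TSS. Of the protein-coding genes with a peak, 95.4% had one nearer to their TSS than *Aurka*, and 2.63% had their nearest peak further upstream.

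*Aurkb*, the Aurora kinase of the chromosomal passenger complex (ENSMUSG00000020897.6, chr11:68859149-68865166, plus strand), had its peak at chr11:68859034-68859233, at -16 bp. The interval covered 4 TSSs of the gene and 85 bp of its exons. *Plk1*, the Polo-like kinase of mitotic entry and spindle assembly (ENSMUSG00000030867.6, chr7:129302951-129313389, plus strand), had its peak at chr7:129302817-129303016, at -35 bp, with 66 bp of the interval in its first exon. Among the 4 kinase genes, 3 peaks thus lay over the TSS and that of *Aurka* lay upstream of it.

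Of the 5 checkpoint genes, 3 had a peak. *Bub1*, a kinase of the kinetochore (ENSMUSG00000027379.7, chr2:127626858-127657601, minus strand), had it at chr2:127657591-127657790, at -89 bp, and the last 11 bp of the interval lay in its exon. *Bub3*, which brings BUB1 and BUBR1 to the kinetochore (ENSMUSG00000066979.5, chr7:138703905-138715412, plus strand), had it at chr7:138703800-138703999, at -6 bp, the middle nearest to a TSS among the 8. This middle also lay in intron 2 of *Fgfr2*, a gene annotated on the opposite strand. *Mad2l1*, whose product MAD2 is part of the complex that inhibits the anaphase-promoting complex (ENSMUSG00000029910.8, chr6:66485384-66491027, plus strand), had it at chr6:66485092-66485291, at -193 bp, and the interval ended at -93 bp.

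The distance at *Mad2l1* depended on the annotation. The RefSeq TSS of the gene, placed on mm9 by the exact match of its promoter, lay at -169 bp from the GENCODE one, and the middle of the peak lay at -24 bp from it. The peak that ended short of the GENCODE TSS therefore covered the RefSeq TSS. At *Aurka* the same comparison moved the distance only from -366 to -331 bp. At *Bub3*, with 2 RefSeq TSSs, the direction turned for one of them, with the middle 15 bp downstream of the first and at -109 bp from the second.

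*Foxm1*, whose product activates genes of late G2 and mitosis (ENSMUSG00000001517.8, chr6:128312985-128325911, plus strand), had its peak at chr6:128312696-128312895, at -190 bp. The interval ran from -289 to -90 bp and left out the TSS, as at *Aurka* and *Mad2l1*.

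**Figure D1:**
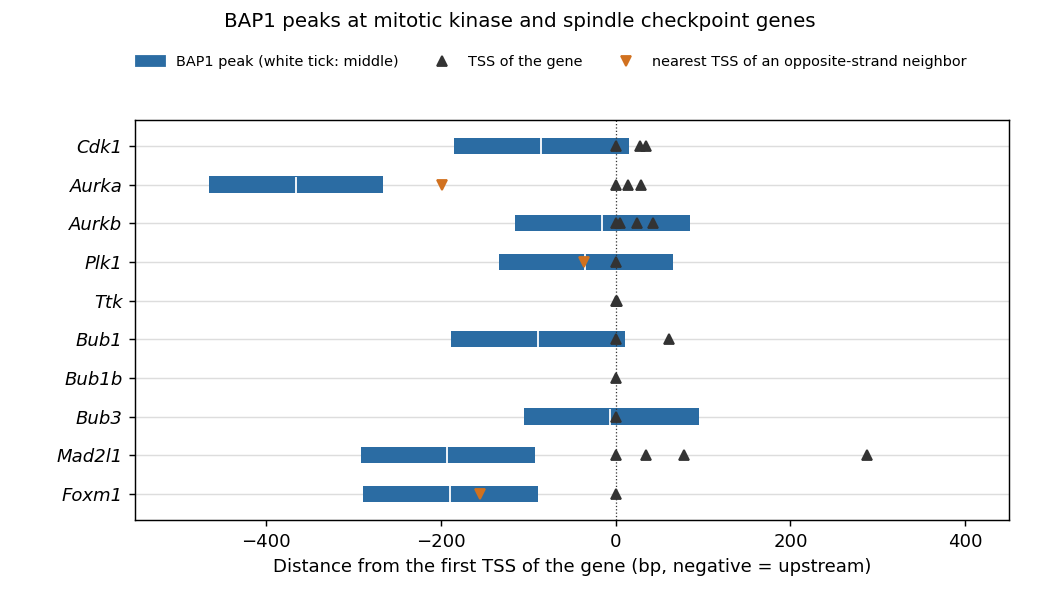
BAP1 peaks at the 10 mitotic genes, drawn to scale on the strand of each gene. The x axis is the distance in bp from the first TSS, bars are the 200 bp peaks with their middle as a white tick, black triangles are TSSs of the gene and orange triangles are the nearest TSS of a neighbor on the opposite strand. All 8 middles lie upstream of the first TSS, 5 bars cover it, and the lines of *Ttk* and *Bub1b* are empty.

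All 8 middles lay upstream of the GENCODE TSS. Of the 9805 gene-proximal peaks of protein-coding genes, each counted once with its nearest such gene, 70.0% had their middle upstream. That share follows another rule, since the 8 peaks were measured only to the TSS of the mitotic gene. By the nearest gene, the *Aurka* and *Foxm1* peaks would go to *Cstf1* and *5930416I19Rik*, with middles 167 and 35 bp downstream. The median distance of the 8 peaks was -87.0 bp, with quartiles of -191 and -30.2 bp, a range from -366 to -6 bp and an SD of 122 bp over genes. The nearest peak of all protein-coding genes with one had a median of -32.5 bp and quartiles of -73.0 and 0 bp. The interval covered the TSS at 5 of the 8 genes (62.5%), *Cdk1*, *Aurkb*, *Plk1*, *Bub1* and *Bub3*, and at 77.8% of all protein-coding genes with a peak. The peaks of *Aurka*, *Mad2l1* and *Foxm1* were those that did not.

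**Figure D2:**
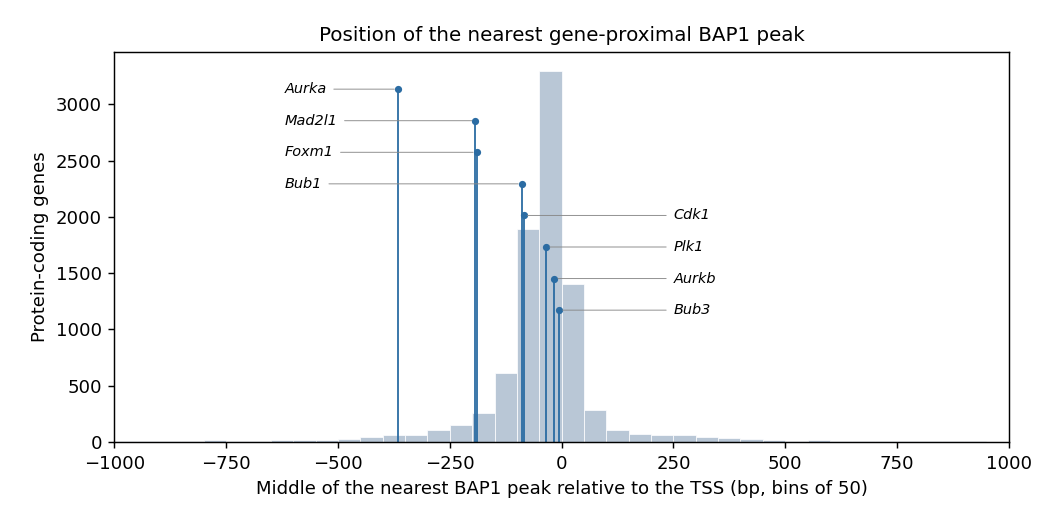
Middle of the nearest gene-proximal BAP1 peak relative to the TSS, in bp, with the number of protein-coding genes in bins of 50 bp as grey bars and the 8 mitotic genes with a peak as blue lines, whose height has no meaning. *Bub3*, *Aurkb* and *Plk1* stand in the highest bar, and *Aurka* at -366 bp stands in the upstream tail.

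None of the 8 peaks touched a coding base of its gene, and 0 peaks had their middle inside the body of any of the 10 genes. Their annotation held 42 distinct TSSs, 35 of them in the 8 genes with a peak. Of these, 19 lay within 1 kb of the peak, all within 288 bp of the first TSS of their gene. The other 16 lay 2108 to 26599 bp downstream of the first, and only 2 of them started a protein-coding transcript, 1 in *Cdk1* and 1 in *Foxm1*. The peaks of these genes thus stood at the upstream group of start sites.

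Of the 8 peaks, 3 also lay within 1 kb of the TSS of a neighbor, on the opposite strand each time, and nearer to that TSS than to the mitotic gene's own. The middle of the *Aurka* peak lay 167 bp downstream of the TSS of *Cstf1*, a gene for an mRNA cleavage factor, and in its 5′ UTR. The *Foxm1* peak lay 35 bp downstream of the TSS of the protein-coding gene *5930416I19Rik*, also in the 5′ UTR. The *Plk1* peak had its middle at -1 bp from the TSS of *Gm15489*, a long intergenic noncoding RNA whose TSS lay at -36 bp from that of *Plk1*. In such a place, a peak cannot be assigned to either gene from its position. By a looser count, a TSS of another gene within 1 kb of a peak, on either strand and nearer or not, was found at 3 of the 8 genes (37.5%). The same count gave 32.7% of all protein-coding genes with a peak.

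*Ttk*, which encodes the checkpoint kinase MPS1 (ENSMUSG00000038379.8, chr9:83728296-83765997, plus strand), lay far from any peak. The nearest was 90400 bp downstream of its TSSs, at chr9:83818598-83818797, where its middle lay at -60 bp from the TSS of *Bckdhb*, an enzyme gene of branched-chain amino acid breakdown. In the other direction the nearest lay at -744120 bp. No peak lay within 50 kb.

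*Bub1b*, which encodes the checkpoint protein BUBR1 (ENSMUSG00000040084.8, chr2:118423947-118467328, plus strand), had its nearest peak at chr2:118484941-118485140, 27764 bp downstream of its most downstream TSS and in no annotated gene. On the upstream side the nearest peak lay at -48529 bp, 5 bp downstream of the TSS of *Bmf*, a proapoptotic BCL2 family gene. The 13517 protein-coding genes without a gene-proximal peak had a median distance to their nearest peak of 82969 bp, with quartiles of 26300 and 253246 bp, and both genes lay between these quartiles. The furthest peak that counted as gene-proximal, at *Aurka*, lay 366 bp from a TSS, so no member stood near the 1 kb threshold.

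Beyond its own promoter, *Aurkb* stood in a region dense in peaks. It had 15 peaks within 50 kb, where the protein-coding genes with a gene-proximal peak had a median of 3.00 and at most 16. Of these 15, 12 lay within 1 kb of the TSS of a gene, and besides *Aurkb* they fell to 7 other protein-coding genes. *Mad2l1* and *Cdk1* stood at the other end. Their next peak beyond 1 kb lay 360712 bp and 116793 bp away, and 96.9% and 87.1% of bound protein-coding genes had one nearer. The next peak of the other 6 bound genes lay between 6277 bp (*Bub3*) and 53717 bp (*Foxm1*) away, and the median over all protein-coding genes with a peak was 27055 bp.

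The median CpG content of the 10 promoters was close to that of bound genes. The CpG ratio, which is the observed over the expected number of CpG dinucleotides within 500 bp of the TSS, had a median of 0.773 over the 10 genes with an SD of 0.121. Protein-coding genes with a peak had a median of 0.762 (quartiles 0.649 and 0.861) and those without one 0.295 (quartiles 0.156 and 0.568). *Aurka* (0.887), *Foxm1* (0.883) and *Bub1* (0.877) had the highest ratios of the 10, above the upper quartile of bound genes. *Aurkb* (0.814), *Bub3* (0.781), *Plk1* (0.766) and *Mad2l1* (0.725) lay between the quartiles. *Cdk1* had the lowest ratio in this window, 0.526, below the lower quartile of bound genes, and yet had a peak.

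*Ttk* and *Bub1b* had ratios of 0.625 and 0.658, both above that of *Cdk1* and above the upper quartile of genes without a peak. *Ttk* lay below the lower quartile of bound genes, 0.649, and *Bub1b* just above it. Within 1 kb of the TSS the order of *Bub1b* and *Cdk1* turned, with ratios of 0.497 and 0.528. Among the 2310 protein-coding genes with a ratio within 0.05 of that of *Ttk*, 54.9% had a peak, and among the 2610 within 0.05 of *Bub1b*, 60.1% did. The GC content of these promoters, 62.1% and 52.7%, lay within the range of the 8 genes with a peak, from 52.4% at *Aurkb* to 71.2% at *Foxm1*. Of the 971 windows of 31 bases within 500 bp of the TSS, 100% occurred once in the genome at *Ttk* and at *Bub1b*, against 92.1% at *Cdk1* and 95.8% at *Plk1*, which both had a peak. The part of repeated sequence in these calls was not tested.

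**Figure D3:**
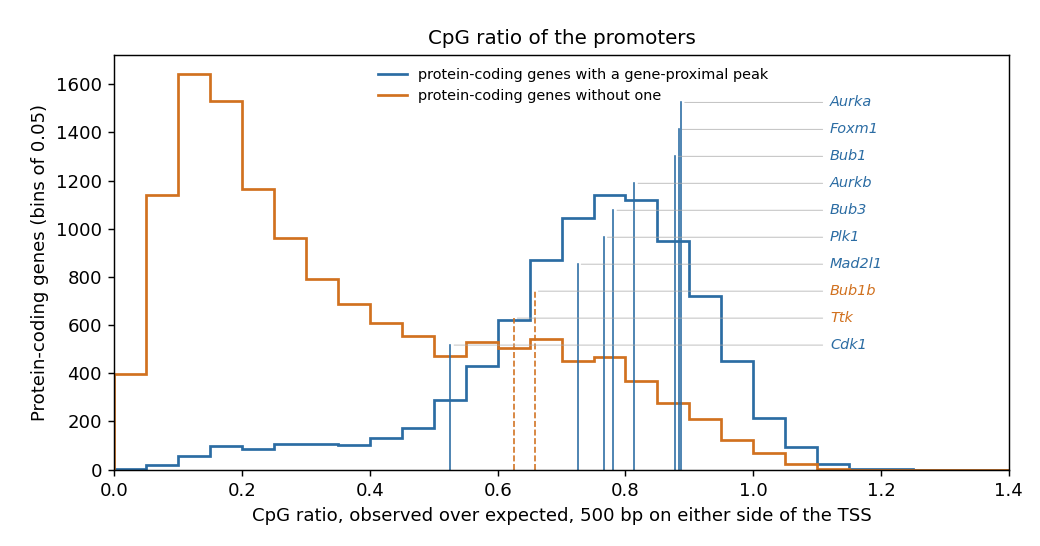
CpG ratio within 500 bp of the TSS (x axis) and number of protein-coding genes in bins of 0.05 (y axis), in blue for genes with a gene-proximal BAP1 peak and in orange for genes without one. Vertical lines mark the 10 mitotic genes, dashed for *Ttk* (0.625) and *Bub1b* (0.658), and their height has no meaning. The 10 genes lie between 0.526 and 0.887, to the right of most genes without a peak.

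Most of the 10 promoters held letters of the mitotic promoter elements, among them those of both genes without a peak. In the 300 bp window from 250 bp before to 50 bp after the first TSS, TTTGAA was found in 8 of the 10 genes, against 16.2% of all protein-coding promoters. The exceptions were *Bub1*, which held the variant TTCGAA, and *Mad2l1*, which held neither. CCAAT was found in 9 of the 10, all but *Mad2l1*, against 37.9% of all promoters. The combination of CCAAT with either form of CHR, which was chosen after the single motifs had been seen, was present in 9 of 10 promoters here and in 7.39% of all promoters. Among the 52 further mitotic genes and regulators described below, only 10 promoters held it (19.2%), so it was not general to that list. The list is mixed and also takes in *Aurkc*, a kinase of meiosis, and *Plk2*, a kinase of stressed cells and neurons. These are exact letter matches and are not evidence of a bound factor.

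That combination was not more common in promoters with a peak. It was found in 6.31% of the protein-coding promoters with a gene-proximal peak and in 8.11% of those without. Of the 1654 promoters that held it, 33.7% had a peak, as did 39.6% of all protein-coding genes. Promoters with and without a peak also differed in CpG content, and the comparison was not matched for it. *Ttk*, without a peak, held CHR at 7 to 12 bp and CCAAT at -65 and -28 bp from the TSS. *Bub1b*, also without a peak, held CHR at 40 to 45 bp and CCAAT at -113 bp on the opposite strand. The *Bub1b* promoter also held ACTACAA at -87 and at -37 bp. At least 2 matches to ACTACAA were found in 0.246% of all protein-coding promoters and in 0.475% of those with a peak, and this count was chosen after its value at *Bub1b* had been seen.

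Within the 200 bp of the peaks themselves, TTTGAA was found in 3 of 8, at *Cdk1* (-45 to -40 bp), *Plk1* (28 to 33 bp) and *Bub3* (-64 to -59 bp), and in 4.58% of the 10073 gene-proximal peaks. *Aurkb* held the variant at 1 to 6 bp, and the variant was found in 0.983% of gene-proximal peaks. CCAAT was found in 5 of 8 peaks and in 30.0% of gene-proximal peaks. The 5 were *Cdk1* with 3 matches, *Aurkb*, *Bub1* and *Bub3* with 2 each, and *Plk1* with 1. These are the 5 peaks that covered the TSS, and the peaks of *Aurka*, *Mad2l1* and *Foxm1* held neither CHR nor CCAAT. At *Aurka* and *Foxm1* the promoter held both, with CHR over the TSS at -3 to 2 bp and at -4 to 1 bp, and the peak stood upstream of these letters.

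Of the other letters searched, GGGCGG was found in 6 of 8 peaks and in 68.6% of gene-proximal peaks. *Foxm1* had 5 matches and *Mad2l1* 3, and *Aurka* and *Aurkb* had none. The ETS letters CCGGAAG were found at *Foxm1* alone, and in 20.2% of gene-proximal peaks. The YY1 letters AAGATGGC were found in the *Aurka* peak alone, at -335 to -328 bp, and in 5.08% of gene-proximal peaks. They lay inside *Cstf1*, whose TSS nearest the peak was at -199 bp from that of *Aurka*, and no member promoter window held them. YY1 and host cell factor HCF-1 are known partners of BAP1. The E2F letters TTTCCCGC and TTTGGCGC, the CREB/ATF letters TGACGTCA, the NRF1 letters GCATGCGC and ACTACAA were in none of the 8 peaks. Each of these was also rare in gene-proximal peaks, in at most 5.80%. In the windows searched, 1 pair of different motifs shared a base, CCAAT and GGGCGG in the *Aurkb* promoter.

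**Figure D4:**
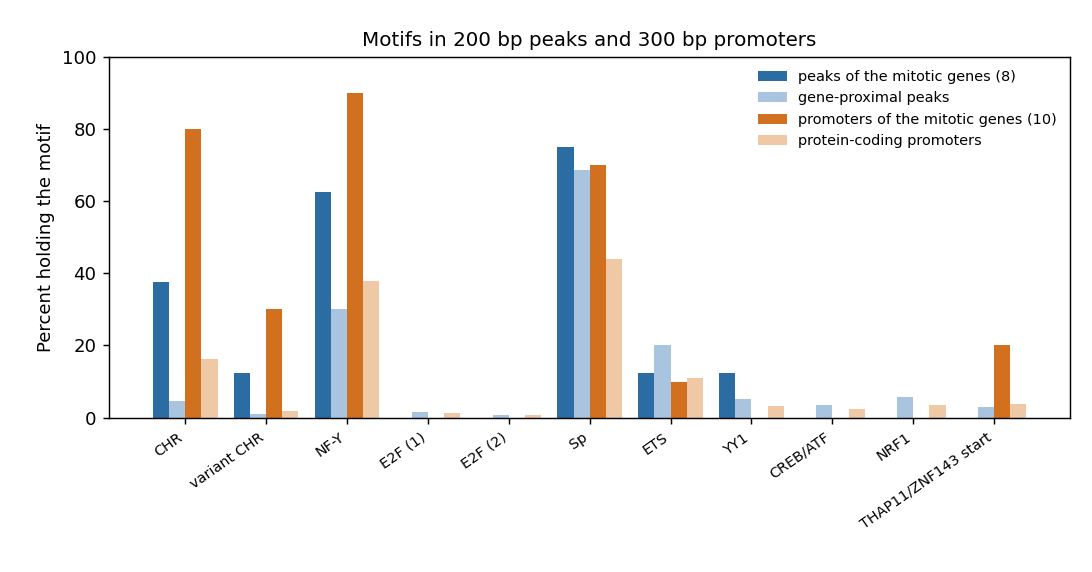
Percent of windows that held each motif on either strand, for the 200 bp peaks of the 8 mitotic genes with one (dark blue), all gene-proximal peaks (light blue), the 300 bp promoters of the 10 mitotic genes (dark orange) and all protein-coding promoters (light orange). CHR and NF-Y letters stand higher in the mitotic genes than in all promoters, 8 and 9 of 10 against 16.2% and 37.9%, and the Sp letters were found in 6 of 8 peaks against 68.6% of all gene-proximal peaks.

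The partners and regulators of these genes were described from a list of 52 further genes, chosen by function with earlier results known. Of these, 48 had a gene-proximal peak (92.3%), and together with the 10 genes above 56 of 62 did, where 39.6% of all protein-coding genes had one. The share over all protein-coding genes was not matched for CpG content here either. All 3 partners of Aurora B in the chromosomal passenger complex had one, *Incenp* with 2 peaks at -190 and -79 bp, *Birc5*, which encodes survivin, at -35 bp and *Cdca8*, which encodes borealin, at -121 bp. All 12 genes grouped here as other checkpoint genes had one, so that *Ttk* and *Bub1b* were the only ones of the 17 so grouped that had none. The grouping is broad and also takes in *Fzr1*, which encodes an activator of the anaphase-promoting complex. All 10 regulators of mitotic gene transcription had one, among them the MuvB genes *Lin52* (-411 and -216 bp), *Lin54* (-98 and -9 bp) and *Rbbp4* (-52 and -5 bp).

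Of the 23 other mitotic kinases and their regulators, 20 had a peak. The exceptions were *Aurkc*, the Aurora kinase of meiosis, with its nearest peak 85585 bp away, *Plk2*, a Polo-like kinase of stressed cells and neurons, with 1095132 bp, and *Pbk*, a MAPKK-like mitotic kinase, with 27795 bp. Of the 4 genes of sister separation, 3 had a peak. *Pttg1*, which encodes securin, had none, and its nearest peak lay at -7529 bp.

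In the wider list 11 genes had 2 peaks, which none of the 10 mitotic genes had. Besides *Incenp*, *Lin52*, *Lin54* and *Rbbp4* these were *Nek7* (-5 and 411 bp), *Mastl* (-451 and 30 bp), *Cks1b* (-187 and 76 bp), *Mad1l1* (-177 and -33 bp), *Fzr1* (-204 and 0 bp), *Ccdc99* (-68 and 109 bp) and *Rbl2* (4 and 657 bp). *Mastl* encodes the Greatwall kinase, *Mad1l1* the partner of MAD2 at the kinetochore, and *Fzr1* the CDH1 activator of the anaphase-promoting complex. The nearest peak of the 48 genes had a median of -59.5 bp, between the -87.0 bp of the 8 mitotic genes and the -32.5 bp of all bound protein-coding genes. It lay upstream in 40 of 48 and covered the TSS in 35. No difference between these lists was tested.

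**Figure D5:**
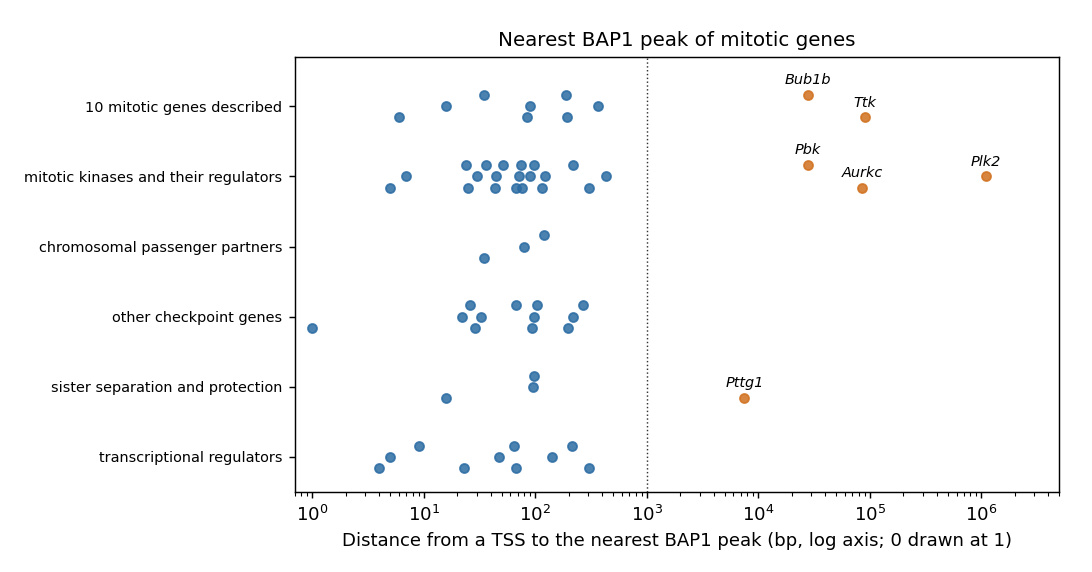
Distance in bp, on a log axis, from a TSS to the nearest BAP1 peak, 1 point for each gene, for the 10 mitotic genes and the 52 genes of the wider list by group, with a distance of 0 drawn at 1. The dotted line is the 1 kb limit, blue points lie within it and orange points, which are named, beyond it. Points are spread vertically only to keep them apart, and no gene lies between 1 kb and the 7529 bp of *Pttg1*.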

How the data were processed

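BAP1 was mapped by ChIP-Seq in 2 Ba/F3 samples, 1 with anti-BAP1 and 1 with anti-FLAG antibody. The authors aligned reads to mm9 and called peaks against input DNA, with Bowtie 1.0.0 and MACS 1.4.2 as the submitters' processing notes name them. The deposited file holds 2 positions in bp for each peak, where it starts and where it ends, and no other measurement. How the 2 samples were combined, and at which threshold peaks were called, is not given in the sources used here. A stricter threshold would list fewer genes.

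Peaks were placed on GENCODE M1 with Python 3.11.15, and the distance of the middle to the nearest TSS of a gene was taken on the strand of that gene. The placing and the motif search were tested on simulated data and with bedtools 2.31.1. Mitochondrial genes were left out. Motifs were searched as exact letters on both strands. RefSeq promoters (300 bp) of 8 members were matched exactly to mm9, and *Aurkb* and *Foxm1* were not in the table used. Sequences come from the mm9 genome.

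The members and lists were chosen with earlier results of these data known. Named were all 10 members, of the wider list the genes with no peak or with 2 or more, and each gene with a TSS within 1 kb of a member's peak. *Birc5* and *Cdca8* were added to complete a complex, and genes at distant peaks to give their place. Counts were set beside those of all genes, and no test was made, since the list holds no value for each sample.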

Additional observations from a re-analysis of the deposited data

How the results depend on the processing

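The 8 of 10 genes with a peak, their 8 peaks and the genes of the wider list with one (47 to 48) were the same or nearly so with windows of 500 bp, 2 kb and 5 kb, distances from the nearer edge of a peak, 1 TSS per gene, TSSs of protein-coding transcripts and peaks within 500 bp merged. Protein-coding genes with a peak ranged from 8403 to 9512. The median distance was -87.0 bp with 1 TSS per gene, with TSSs of protein-coding transcripts and with the nearest peak of each gene, and was not computed under the others. With RefSeq TSSs, an alternative chosen after seeing the data, 6 of the 8 genes matched had a peak. The median CpG ratio of the 10 promoters was 0.870 within 250 bp of the TSS and 0.636 within 1 kb, a window that takes in more sequence around the promoter, against 0.773 within 500 bp. CHR letters were found in 5 of 8 peaks when these were widened by 100 bp on either side. No paired analysis was possible because both samples were deposited as 1 list, which also allowed no replicate to be left out. With no read counts, depth sets a limit on calling weak peaks that could not be measured.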
